A study of Mus musculus with 10 samples.

Results

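Expression of 10 fibroblast genes was followed in RNA sequencing of mouse right atrium. They are the resident fibroblast markers Pdgfra, Ddr2, Tcf21, Dcn, Lum and Gsn, the activated fibroblast markers Meox1, Fap and Cthrc1, and the mesenchymal marker Vim. They were chosen by symbol, and all 10 were among the 23337 genes of the deposited table and among the 13084 genes that passed the filter on low counts. Right atrial appendage came from 4 mice labelled control (M1, M2, F1, F2) and 6 mice labelled as lacking Tbx5 (F1, F2, F3, M1, M2, M3), with 1 library per mouse. All were of a mixed strain and labelled 8 to 10 weeks old, whereas the dissection protocol gives 6 to 8 weeks. Tbx5 is a T-box transcription factor of atrial rhythm, and its exon 3 is the part removed in the mutant, by Cre activated with tamoxifen. Cre is expressed from R26, a promoter active in most cell types, so recombination is not limited to cardiomyocytes. Tamoxifen was given intraperitoneally at 0.167 mg per day for 3 days, and tissue was taken 1 week after it. The same treatment text is attached to the samples labelled control, and the labels do not give their Cre or floxed alleles.

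Cardiac fibroblasts make and remodel the collagen-rich matrix between myocytes. In the resting heart they are recognised by receptors for matrix and growth factors and by matrix proteoglycans. In injured or fibrotic hearts they can enter an activated state with more collagen, periostin and contractile proteins. Atrial fibrosis is a known companion of atrial fibrillation. In bulk atrium these genes are read out of a mixture of cells, so fewer fibroblasts and less RNA per fibroblast cannot be told apart.

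The libraries held between 5703775 and 7095141 counts. The ribosomal RNA precursor Rn45s took 38.9% of the counts of mutant M3, leaving 3484550 counts, and between 0.268 and 1.49% elsewhere. Xist gave 10149 and 7850 reads in the controls labelled male and 5 and 14 in the controls labelled female, the opposite of the labels, whereas the mutants matched theirs. Comparisons within a labelled sex therefore set controls against mutants of the other Xist state. Tbx5 itself went against the genotype label. It stood at 205 ± 17.8 CPM (counts scaled to library size; SD, n = 4) in mice labelled control and 394 ± 83.3 CPM (n = 6) in mice labelled Tbx5 mutant. The log2 difference was 0.94 ± 0.15 (SE; adjusted p = 0.000495, edgeR quasi-likelihood test with Benjamini-Hochberg adjustment). A count over the whole gene does not show the loss of exon 3. Ryr2, the calcium release channel, and Sln, the calcium pump inhibitor sarcolipin, have been described as dependent on Tbx5 in atrium and are given here with their values already seen. Ryr2 fell from 5328 ± 564 to 1701 ± 469 CPM (log2 difference -1.65, adjusted p = 2.99e-05) and Sln from 1823 ± 244 to 927 ± 164 CPM (log2 difference -0.98, adjusted p = 0.000264) in mice labelled mutant. Whether labels were exchanged was not tested, and every direction below is for mice labelled mutant against mice labelled control.

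Promoter sequence, from 250 bases before to 50 bases after an annotated start, was at hand for 5 of the 10 genes (RefSeq, GRCm38.p6). Those of Gsn, Pdgfra and Vim are shown because these genes stood lower (Gsn, Pdgfra) and higher (Vim) in the mice labelled mutant at an adjusted p under 0.05. Capitals mark AGGTGT, the core of the T-box factor site, or its complement ACACCT, and the E-box CAGCTG. The Gsn window lies at chr2:35266494-35266793, the Pdgfra window at chr5:75152001-75152300 and the Vim window at chr2:13574061-13574360, all on the forward strand and written 5′ to 3′.
Gsn: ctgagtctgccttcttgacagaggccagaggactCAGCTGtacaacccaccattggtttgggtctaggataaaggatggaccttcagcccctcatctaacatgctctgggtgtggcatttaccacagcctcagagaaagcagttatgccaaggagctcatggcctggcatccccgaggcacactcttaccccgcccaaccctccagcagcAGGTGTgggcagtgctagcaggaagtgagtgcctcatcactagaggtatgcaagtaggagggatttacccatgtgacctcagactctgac
Pdgfra: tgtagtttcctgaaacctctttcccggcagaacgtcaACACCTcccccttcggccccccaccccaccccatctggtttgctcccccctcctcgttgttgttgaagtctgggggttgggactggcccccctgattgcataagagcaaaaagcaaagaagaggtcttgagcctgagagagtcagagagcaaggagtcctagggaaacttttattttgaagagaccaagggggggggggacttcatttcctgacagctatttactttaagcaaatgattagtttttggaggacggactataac
Vim: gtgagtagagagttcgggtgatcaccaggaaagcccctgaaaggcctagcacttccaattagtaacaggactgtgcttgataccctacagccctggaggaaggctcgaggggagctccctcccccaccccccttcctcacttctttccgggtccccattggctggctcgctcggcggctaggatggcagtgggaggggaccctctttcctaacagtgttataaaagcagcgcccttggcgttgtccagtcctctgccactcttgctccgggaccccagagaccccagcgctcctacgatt
The Gsn window held AGGTGT at position -40 from the start and CAGCTG at -216, and a second Gsn promoter, at chr2:35256109-35256408, held CAGCTG at -53. The Pdgfra window held the T-box core on the reverse strand at -213. The Vim window held neither, nor did a further Gsn promoter, at chr2:35282130-35282429, or the promoters of Ddr2 and Tcf21. Of the Gsn promoters, only the one shown held AGGTGT. Both strands of all 32851 promoters of the table were searched, and AGGTGT was found in 13.7% of them and CAGCTG in 16.3%. Among the 5 genes with promoter sequence, 2 held AGGTGT (Gsn and Pdgfra) and 1 held CAGCTG (Gsn). Those percentages count promoters rather than genes. The AP-1 motif TGANTCA (7.81% of promoters) and the TEAD motif GGAATG (14.7%) were in none of the members' 7 promoters. None of these motifs overlaps another in the 3 windows, and a match of letters is not evidence of binding.

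Between the groups, 3 of the 10 genes rose (Meox1, Cthrc1 and Vim), 1 fell (Gsn) and 6 were not called. A gene was called when its adjusted p was under 0.05, its fold change over 1.5 and its mean deposited normalized signal in the controls over 1. By this rule 15.7% of all tested genes were called, 7.16% lower and 8.50% higher, and 31.3% had an adjusted p under 0.05 at any fold, as did 5 of the 10 members. The median log2 difference was 0.23 over the 10 members, -0.17 over the 6 resident markers and 1.10 over the 3 activated markers, beside -0.00495 over all tested genes. The activated median is the value of Meox1, between Fap at 0.00 and Cthrc1 at 1.80. The resident values changed when the transcript length trend described below was removed. They then stood at -0.84 (Gsn), -0.21 (Pdgfra), -0.074 (Ddr2), 0.076 (Dcn), 0.35 (Lum) and 0.42 (Tcf21).

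**Figure D1:**
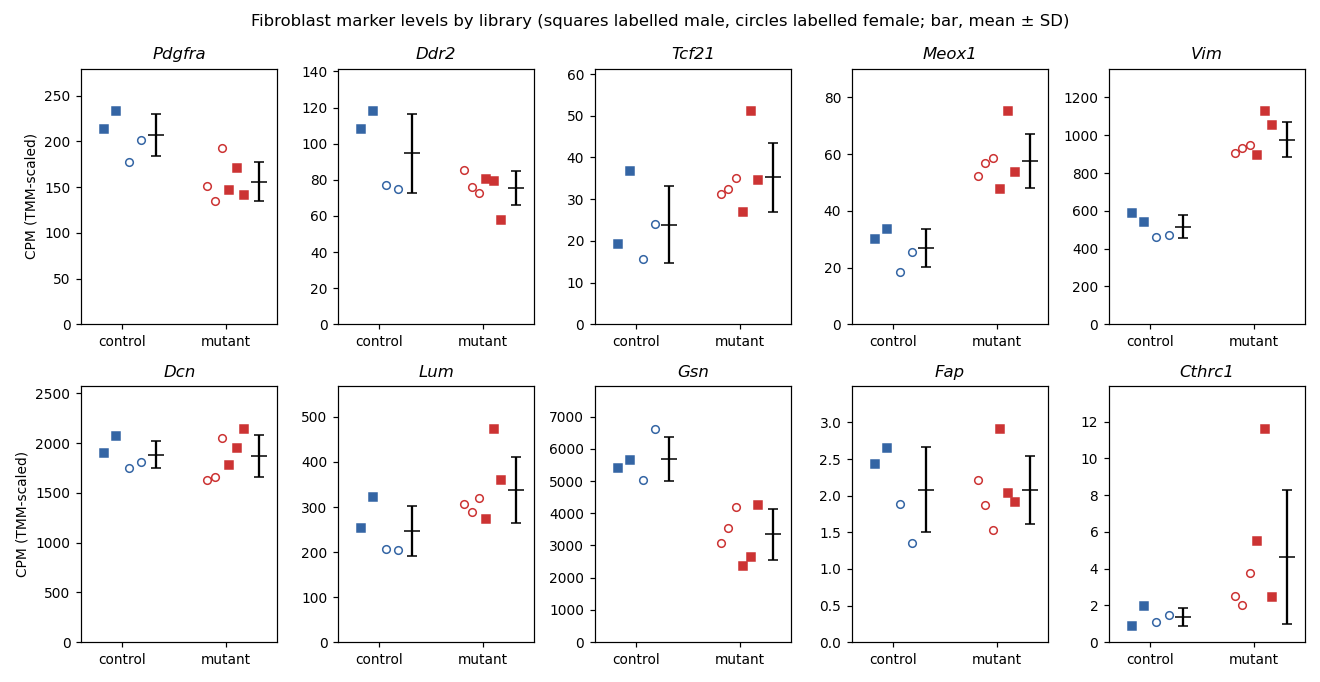
Level of each of the 10 genes in CPM on a linear axis of its own, 1 point per library (squares labelled male, circles labelled female), for 4 mice labelled control and 6 labelled mutant, with bars for the mean and SD. Meox1, Cthrc1 and Vim lie higher in all 6 mutant libraries than in any control, Gsn lies lower in all 6, and the groups overlap for Dcn and Fap.

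The receptors came first in the resident set. Pdgfra, the receptor for PDGF-A that marks fibroblasts in the adult heart (chromosome 5, 75152292 to 75198215, forward strand), stood at 214, 233, 177 and 202 CPM in control M1, M2, F1 and F2. In the mutant libraries it stood at 151, 135 and 193 CPM in F1 to F3 and at 147, 171 and 141 CPM in M1 to M3. Mutant F3 lay within the control range and the other 5 lay below every control. This gave a log2 difference of -0.40 ± 0.11 (SE; adjusted p = 0.0152), a 1.32-fold lower level, which is under the fold threshold. Without control M2 the adjusted p was 0.0612, and in mice labelled female the log2 difference was -0.25 (adjusted p = 0.28).

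Ddr2, a receptor tyrosine kinase for fibrillar collagen (chromosome 1, 169972307 to 170110762, reverse strand), stood at 108, 118, 77.1 and 75.1 CPM in the controls. The mutants stood at 85.2, 75.8, 72.6, 80.2, 79.2 and 58 CPM in F1 to F3 and M1 to M3. The controls labelled male were the highest of all 10 libraries, and the controls labelled female lay among the mutants. Between groups the log2 difference was -0.33 ± 0.14 (SE; adjusted p = 0.0866), and it passed in mice labelled male (-0.63, adjusted p = 0.0425), while it was 0.032 in mice labelled female. Within each labelled sex the controls and mutants differed in Xist state, so group and that state cannot be told apart there. The exons of Ddr2 share 90 bases with the antisense gene 3110045C21Rik, which the table also lists, and the strand setting of the counting is not given in the sources used here. The exons of Pdgfra share 456 bases with the antisense gene Gm42802.

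Of 6 listed genes (Pdgfa, Pdgfb, Pdgfc, Pdgfd, Pdgfrb and Ddr1), 1 rose and none fell, beside 8.50% higher and 7.16% lower among all tested genes. The median log2 difference of the 6 was 0.23. Pdgfb, a ligand made by endothelium and platelets that recruits pericytes, was the one that rose, from 12.5 ± 2.44 to 19.6 ± 3.14 CPM (log2 difference 0.65, adjusted p = 0.00624). Pdgfrb, the receptor of pericytes and some fibroblasts, had a log2 difference of 0.41 (adjusted p = 0.0137) and Pdgfc one of 0.51 (adjusted p = 0.0314), both under 1.5-fold. The log2 differences of Pdgfra and Pdgfrb were thus of opposite sign.

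Among the transcription factors, Meox1 rose in every mutant library. Meox1, a homeobox factor known from activated cardiac fibroblasts (chromosome 11, 101877510 to 101894374, reverse strand), stood at 30.1, 33.6, 18.3 and 25.3 CPM in the controls. In the mutants it stood at 52.4, 56.9, 58.7, 47.5, 75.1 and 53.6 CPM. The groups were apart, the lowest mutant being M1 and the highest control M2. Meox1 had a log2 difference of 1.10 ± 0.16 (SE; adjusted p = 0.000249), a 2.14-fold rise, and the two-sided exact permutation test gave p = 0.00476, the smallest that 4 against 6 libraries allow. Across all tested genes, the groups did not overlap in the higher direction for 11.7% and in the lower direction for 11.0%. Its paralogue Meox2, mostly of endothelium, had a log2 difference of 0.02.

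Tcf21, a basic helix-loop-helix factor that embryonic epicardial cells need to become fibroblasts (chromosome 10, 22817281 to 22820174, reverse strand), stood at 19.3, 36.7, 15.7 and 24.0 CPM in the controls. The mutants stood at 31.2, 32.5, 35.1, 26.9, 51.1 and 34.6 CPM. Control M2 lay above 5 of the 6 mutants, and mutant M2 lay above every control. The log2 difference was 0.57 ± 0.22 (SE; adjusted p = 0.0618), short of the threshold. Without control M2 Tcf21 and Lum were both called higher, which made 5 of the 10 genes higher, and without mutant M1 the adjusted p of Tcf21 was 0.0419.

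The small leucine-rich proteoglycans Dcn and Lum bind collagen fibrils and space them. Dcn, or decorin (chromosome 10, 97479609 to 97518143, forward strand), stood at 1899, 2074, 1754 and 1814 CPM in the controls and at 1632, 1656, 2057, 1778, 1955 and 2142 CPM in the mutants. The mutant libraries spanned the whole control range. Dcn had a log2 difference of -0.01 ± 0.12 (SE; adjusted p = 0.952), and the interval of 2 SE ran from -0.25 to 0.22.

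Lum, or lumican, the neighbouring gene (chromosome 10, 97565128 to 97572703, forward strand), stood at 253, 323, 207 and 205 CPM in the controls. The mutants stood at 307, 288, 319, 273, 473 and 360 CPM. Mutants M2 and M3 were above every control and the other 4 lay within the control range. Lum had a log2 difference of 0.45 ± 0.17 (SE; adjusted p = 0.0558), just short of the threshold. Without control M2 it was 0.61 (adjusted p = 0.0198), and without mutant M1 0.49 (adjusted p = 0.0374).

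Among 10 tested relatives of the 15 listed in this family, 2 fell, 1 rose, and the median log2 difference was -0.32. The shares called among all tested genes were 7.16% lower and 8.50% higher. Podn, or podocan, fell from 264 ± 49.6 to 40.3 ± 6.86 CPM (log2 difference -2.71 ± 0.14 SE, adjusted p = 1.91e-08). Fmod, or fibromodulin, which shares a collagen binding site with lumican, fell by 0.63 on the log2 scale (47.5 ± 8.91 to 30.8 ± 8.02 CPM, adjusted p = 0.0175). Aspn, or asporin, a proteoglycan of fibrotic matrix, rose from 42 ± 19.6 to 147 ± 26.3 CPM (log2 difference 1.81 ± 0.25 SE, adjusted p = 0.000141). The family thus held genes that fell and a gene that rose in the same atria, beside Dcn at -0.01.

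Fap and Cthrc1, both known from activated fibroblasts, were the least abundant of the 10. Fap, a cell-surface serine protease (chromosome 2, 62500943 to 62574075, reverse strand), stood at 2.43, 2.65, 1.88 and 1.35 CPM in the controls and at 2.21, 1.87, 1.53, 2.91, 2.04 and 1.91 CPM in the mutants. Only mutant M1 lay outside the control range. The values rest on 10 to 17 reads per control library and 7 to 17 per mutant library. The log2 difference was 0.00 ± 0.26 (SE; adjusted p = 0.992), and its interval of 2 SE, from -0.52 to 0.53, leaves a change of that size undetectable at this depth.

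Cthrc1, a secreted collagen triple helix repeat protein (chromosome 15, 39076932 to 39087121, forward strand), stood at 0.857, 1.99, 1.10 and 1.49 CPM in the controls. The mutants stood at 2.52, 2.00, 3.76, 5.49, 11.6 and 2.45 CPM. The groups did not overlap, but control M2 and mutant F2 nearly met, and mutant M2 was more than any other library. The log2 difference was 1.80 ± 0.52 (SE; adjusted p = 0.0179), a 3.47-fold rise from 6 to 12 reads per control library to 9 to 80 per mutant library. The call was lost without control M1 (adjusted p = 0.0564) or control F1 (adjusted p = 0.0509), and without mutant M2 the log2 difference was 1.27 (adjusted p = 0.0196). It also missed the threshold in mice labelled female (1.07, adjusted p = 0.0966) and in mice labelled male (2.29, adjusted p = 0.0575).

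Gsn and Vim encode cytoskeletal proteins, and both were called, in opposite directions. Gsn, or gelsolin, which severs and caps actin filaments inside the cell and has a secreted plasma form from another start (chromosome 2, 35256380 to 35307892, forward strand), stood at 5392, 5665, 5030 and 6613 CPM in the controls. The mutants stood at 3066, 3545, 4191, 2356, 2654 and 4253 CPM. All 6 mutants lay below every control. Gsn had a log2 difference of -0.76 ± 0.17 (SE; adjusted p = 0.00508), a 1.7-fold fall, with an exact permutation p of 0.00952 (two-sided). In mice labelled male alone it was -0.84 with an adjusted p of 0.0832. The counts do not separate the cytoplasmic from the secreted form.

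Vim, or vimentin, the intermediate filament of mesenchymal cells, also made by endothelium and leukocytes (chromosome 2, 13573927 to 13582826, forward strand), stood at 591, 542, 459 and 473 CPM in the controls. The mutants stood at 904, 931, 948, 894, 1127 and 1055 CPM. The lowest mutant was far above the highest control. The log2 difference was 0.92 ± 0.11 (SE; adjusted p = 6.47e-05), a 1.89-fold rise with the smallest spread among mutants of the 10 genes relative to its mean (coefficient of variation 9.56%, against 78.7% for Cthrc1).

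**Figure D2:**
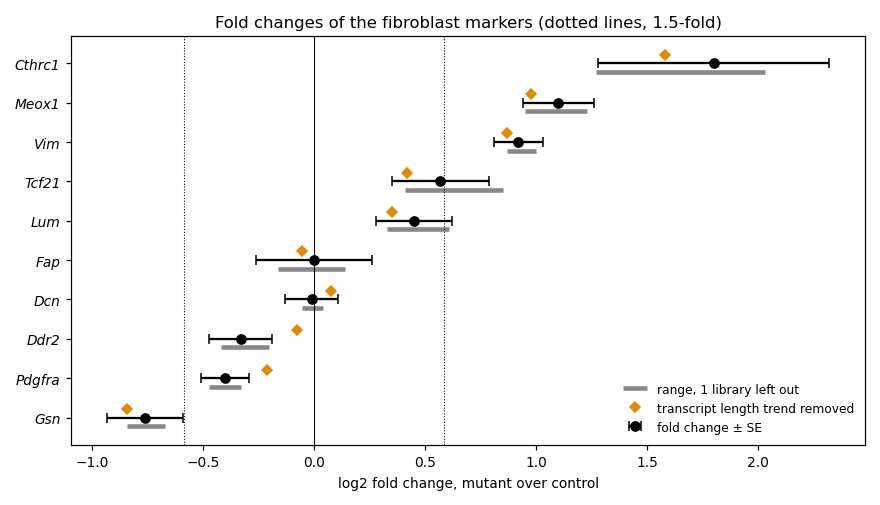
Log2 difference (mice labelled mutant minus mice labelled control) for the 10 genes, as black points with bars of 1 SE, with the range when 1 library is left out (grey) and the value after removal of the length trend (diamonds). Dotted lines mark 1.5-fold. Vim and Meox1 sit near 0.92 and 1.10, Gsn at -0.76, and Dcn and Fap at -0.01 and 0.00.

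Of 15 tested relatives of the 19 listed, among them gelsolin-family, dipeptidyl peptidase and intermediate filament genes, 1 fell, 3 rose, and the median log2 difference was -0.09. Among all tested genes 7.16% were called lower and 8.50% higher. Avil, an actin-binding gelsolin relative, fell from 6.38 ± 0.677 to 2.98 ± 0.654 CPM (log2 difference -1.09, adjusted p = 0.000865). Capg, the capping relative of gelsolin in macrophages, rose by 0.91 (adjusted p = 0.00436). Des, or desmin, the muscle intermediate filament, rose from 957 ± 109 to 1905 ± 202 CPM (log2 difference 0.99, adjusted p = 6.95e-05), close to the change of Vim. Prep, a prolyl endopeptidase related to Fap, rose by 0.60.

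Per kilobase of the longest coding transcript, the genes spanned more than 3 orders of magnitude. In the controls the order was Gsn (2139 ± 255 CPM per kb, SD, n = 4), Dcn (1072 ± 79.2), Vim (235 ± 28.2), Lum (101 ± 22.7), Pdgfra (30.2 ± 3.39), Tcf21 (13.4 ± 5.14), Meox1 (12 ± 2.97), Ddr2 (11 ± 2.53), Cthrc1 (1.16 ± 0.423) and Fap (0.755 ± 0.211). Tcf21, Meox1 and Ddr2 lay within each other's spread, as did Cthrc1 and Fap. In the mutants (n = 6), Gsn (1261 ± 298 CPM per kb) and Dcn (1064 ± 121) came within each other's spread. Meox1 (25.7 ± 4.28) stood level with Pdgfra (22.9 ± 3.17) and Tcf21 (19.7 ± 4.65), and above Ddr2 (8.75 ± 1.10). Over the longest annotated transcript, coding or not, Dcn stood at 402 CPM per kb in the controls and 399 in the mutants and Vim at 176 and 334, so that Gsn and Dcn stayed apart in both groups, and the order of the controls was the same. By that length Gsn, Dcn, Vim and Lum lay at percentiles 99.9, 99.4, 99 and 97.7 of tested genes over all libraries, whereas Cthrc1 and Fap lay at 26.6 and 5.56. The 10 genes together made 7741 to 9434 CPM in the controls and 5610 to 8102 CPM in the mutants, and the 9 without Gsn made 2711 to 3365 and 3169 to 3944 CPM.

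**Figure D3:**
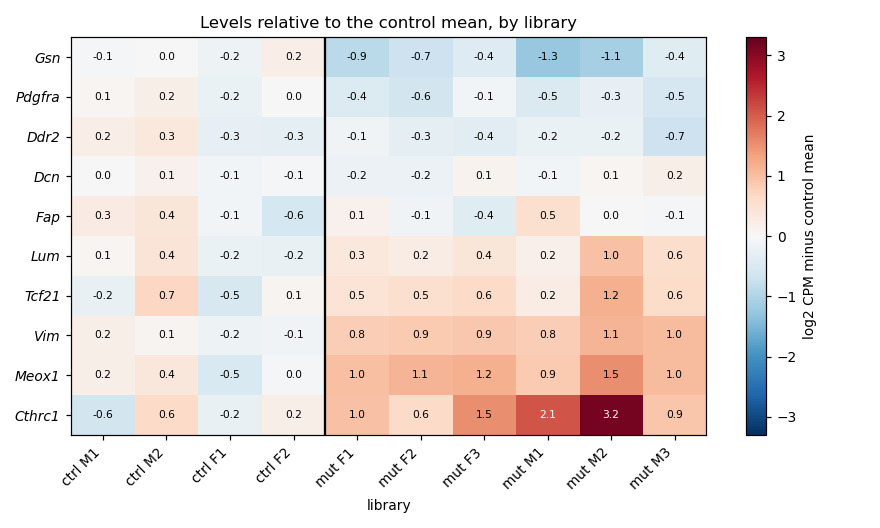
Log2 CPM of the 10 genes in each of the 10 libraries, each gene centred on its mean over the 4 control libraries, with colour giving the difference from that mean. The Vim, Meox1 and Cthrc1 rows are above the control mean in all 6 mutant libraries, the Gsn row is below it in all 6, and mutant M2 has the strongest Cthrc1 value.

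Within the same libraries, some ratios among the fibroblast genes differed between the groups. These ratios were chosen after the values were seen and are given without a test. They are not corrected for the transcript length trend described below, and Pdgfra has a longer transcript than every other member except Ddr2. With that trend removed, log2 differences were -0.21 for Pdgfra, 0.076 for Dcn, 0.35 for Lum and 0.42 for Tcf21. The Dcn value takes its longest transcript, of 4692 bases, rather than its longest coding one, of 1758 bases. The part of length in the ratios was not tested. The ratio of Vim to Pdgfra ran from 2.33 to 2.76 in the controls and from 4.91 to 7.48 in the mutants. That of Meox1 to Pdgfra ran from 0.103 to 0.144 and from 0.304 to 0.44. Dcn to Pdgfra (8.86 to 9.88 against 10.7 to 15.2), Lum to Pdgfra (1.01 to 1.39 against 1.65 to 2.77) and Tcf21 to Pdgfra (0.0883 to 0.158 against 0.182 to 0.299) were apart as well, although none of these 3 genes was called on its own. Pdgfra itself lay below every control in 5 of the 6 mutants, so a gene with little change, such as Dcn (log2 difference -0.01), can come apart from it. The share of all tested genes whose ratio to Pdgfra is apart was not determined. Ddr2 to Pdgfra overlapped (0.372 to 0.508 against 0.376 to 0.563), as did Gsn to Pdgfra (24.3 to 32.7 against 15.5 to 30.2). Set against Dcn, Gsn ran from 2.73 to 3.65 in the controls and from 1.32 to 2.14 in the mutants, and the ratios of Tcf21, Lum, Ddr2 and Fap to Dcn overlapped.

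The profile of Pdgfra over the 10 libraries was compared with every tested gene outside the members, as the root mean square difference of log2 CPM after each gene was centred. The nearest was Tgfb1, the cytokine that drives fibroblast activation, at 0.0924. It stood at 11.4 ± 1.14 CPM in the controls and 8.74 ± 1.04 CPM in the mutants (log2 difference -0.38, adjusted p = 0.04, under 1.5-fold). The next were Aatk (0.103), Rab23 (0.114), Glcci1 (0.115) and Snx29 (0.117). Among the members, Ddr2 came nearest, at 0.216 and rank 802, and Dcn at rank 1306, whereas Vim, Meox1 and Cthrc1 ranked 11862, 12253 and 12751. The measure takes in the difference between the groups. Genes whose log2 difference is far from that of Pdgfra therefore rank far by construction, and the nearest genes share its lower level by construction. The lower level of Tgfb1 is thus part of how it was picked, and a link between Tgfb1 and Pdgfra was not tested.

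The activated list outside the 10 genes moved mostly upward. Of 26 tested of 28 listed genes, 18 rose and none fell, with a median log2 difference of 1.13. Over all tested genes, 8.50% were called higher and 7.16% lower. The list was chosen with earlier results of these data known, so its counts are a description only. The largest was Tnc, or tenascin C, a matrix protein of wounds, from 2.8 ± 1.34 to 62.7 ± 33.4 CPM (log2 difference 4.50 ± 0.42 SE, adjusted p = 7.23e-06). Postn, or periostin, the classical product of activated fibroblasts and named here after its values were seen, rose from 155 ± 83.6 to 777 ± 214 CPM (log2 difference 2.33, adjusted p = 0.000154). Comp, Cilp, Thbs4, Itga11, Inhba, Fgl2, Nox4 and Tgfb1 were not called. Spp1 was at 0 in all 4 controls and was not tested. Of the activated members, Fap was likewise not called, and Meox1 and Cthrc1 were called higher.

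The list of further resident fibroblast genes moved both ways. Of 34 tested of 35 listed genes, 4 fell and 14 rose, with a median log2 difference of 0.32. Over all tested genes, 7.16% were called lower and 8.50% higher. This list too was chosen with earlier results of these data known. Gpx3, a secreted glutathione peroxidase, fell most, from 1175 ± 157 to 432 ± 62.7 CPM (log2 difference -1.44 ± 0.13 SE, adjusted p = 3.62e-06). Scara5, a ferritin receptor of adventitial fibroblasts, fell from 7.69 ± 3.18 to 2.83 ± 1.35 CPM (adjusted p = 0.00667), Fbln1, a fibulin, fell from 478 ± 40.1 to 260 ± 59.4 CPM (adjusted p = 0.000559), and Htra3, a serine protease, fell by 0.95 on the log2 scale (adjusted p = 0.00711). Mfap4, a microfibril protein, rose most, from 35.7 to 88.7 CPM (log2 difference 1.32 ± 0.31 SE, adjusted p = 0.006). All 5 collagen genes of the list rose (Col1a1, Col1a2, Col3a1, Col5a1 and Col6a3), among them Col3a1, from 1433 ± 386 to 3459 ± 758 CPM (log2 difference 1.27, adjusted p = 0.00036), and Col1a1, from 162 ± 33.8 to 400 ± 125 CPM (log2 difference 1.31, adjusted p = 0.000502). The collagens are also products of activated fibroblasts. Without mutants M2 and M3 the counts were 5 lower and 9 higher, and in mice labelled male alone 3 lower and 7 higher. For the activated list the counts were 0 lower and 18 higher without M2 and M3, and 0 lower and 16 higher in mice labelled male alone.

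**Figure D4:**
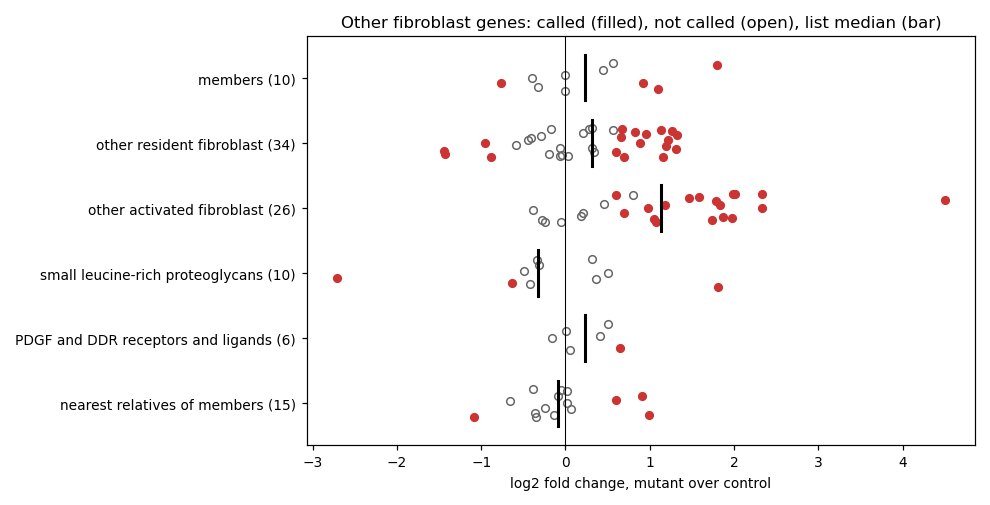
Log2 difference (mice labelled mutant minus mice labelled control) of each tested gene in the 10 members and 5 further lists, 1 point per gene, filled where called, with the median of each list as a bar. The activated list centres on 1.13, the resident list on 0.32, and the proteoglycans on -0.32 with Podn at -2.71.

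The difference between groups varied with transcript length, a property that separates the members. Over 12951 tested genes with a length, Spearman's rho between length and log2 difference was -0.316, a description across genes, which are not independent. Length was that of the longest annotated transcript, coding or not. This gives Dcn 4692 bases, against 1758 bases for its longest coding transcript, and the trend was not refitted with coding lengths. The median log2 difference was -0.19 for 2250 genes between 5467 and 10738 bases, the range around the long transcripts of Pdgfra (6834 bases) and Ddr2 (8590 bases), and 0.13 for 4658 genes between 1000 and 3000 bases, where Meox1, Vim, Gsn and Tcf21 lie. With this trend removed from each library, Pdgfra had a log2 difference of -0.21 (adjusted p = 0.188) and Ddr2 one of -0.074. Gsn (-0.84, adjusted p = 0.0018), Meox1 (0.98, adjusted p = 0.000418), Vim (0.87, adjusted p = 5.56e-05) and Cthrc1 (1.58, adjusted p = 0.0321) kept their calls.

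Markers of the other cells of the atrium moved as well, and their part in the results above was not tested. Their counts stand beside 7.16% of all tested genes called lower and 8.50% called higher. The 12 cardiomyocyte markers summed to 147787 to 200238 CPM in the controls and 94306 to 166053 CPM in the mutants, with 5 lower (Myl7, Nppa, Sln, Ryr2 and Kcnj3) and 3 higher (Tnnt2, Actc1 and Mybpc3). Ttn made the largest part of these sums, at 82383 ± 20258 CPM in the controls and 51937 ± 27050 CPM in the mutants. It was not called (log2 difference -0.67, adjusted p = 0.146, edgeR). The 12 smooth muscle and pericyte markers summed to 1327 to 1595 and 2040 to 3027 CPM, with 3 higher (Acta2, Tagln and Des). Des made most of these sums, at 957 ± 109 CPM in the controls and 1905 ± 202 CPM in the mutants. Of the 12, 9 had a log2 difference above 0. Myh11 (0.23), Rgs5 (-0.22) and Kcnj8 (-0.27) were not called, and Abcc9 was lower by under 1.5-fold (-0.58, adjusted p = 0.000505, edgeR). Acta2 and Tagln stand in the activated list as well, and Des among the relatives. The 12 leukocyte markers summed to 401 to 632 and 672 to 970 CPM, and 6 of the 8 tested rose. The 12 endothelial and endocardial markers, whose cells also make Vim, summed to 2787 to 4162 and 3634 to 4782 CPM, with 1 higher (Vwf). The 9 epicardial and mesothelial markers summed to 426 to 444 and 264 to 518 CPM, with none called. The 12 proliferation genes all rose, from sums of 53.3 to 73.3 CPM to 144 to 385 CPM (median log2 difference 2.74). The Schwann cell and neuron markers summed to 59.4 to 82 and 38.9 to 44 CPM, and 1 of 4 tested fell (Mbp). The adipocyte markers summed to 133 to 195 and 197 to 387 CPM, with mutant M2 highest, and 1 gene was tested and rose (Fabp4). Fabp4 made most of these sums, at 152 ± 26.5 CPM in the controls and 252 ± 60.4 CPM in the mutants. The erythroid markers summed to 10.1 to 14.5 and 9.2 to 43.1 CPM, with Hba-a1, Hba-a2, Hbb-b1 and Hbb-b2 at 0 in every library and Alas2 higher. Every fibroblast member was above 0 in every library.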

How the data were processed

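RNA from right atrial appendage of 4 mice labelled control and 6 labelled Tbx5 mutant was sequenced as single-end reads of 50 or 51 bases, and the protocols name both an mRNA kit and ribosomal RNA depletion. Per the submitters' processing notes, FastQC, TopHat2 2.0.11, featureCounts and DESeq2 were used with mm10, and the annotation is not given in the sources used here. The authors deposited raw counts per gene symbol, and a normalized signal equal to the counts divided by 1 size factor per library. Their own columns of the comparison (fold changes and p-values) were not used.

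Counts were fitted with edgeR 4.0.16 (R 4.3.3; filterByExpr, TMM, quasi-likelihood test, group as the only term, prior count 0.125), with Benjamini-Hochberg adjustment over 13084 genes. Calls needed an adjusted p under 0.05, a fold over 1.5 and a mean control signal over 1, thresholds taken from the study's methods for left atrium. CPM used TMM library sizes, and SE is the log2 difference over the root of F. Exact permutation tests took all 210 splits of log2 CPM (prior count 1). Libraries held 5703775 to 7095141 counts, 3484550 outside Rn45s in mutant M3, and the SE covers both counting error and the spread between mice. Lengths and positions come from GENCODE for GRCm38, the build of mm10.

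The members and lists were chosen with earlier results of these data known. Named were the 10 members, the called gene with the largest change in each direction in each list of further fibroblast genes, the genes behind a count of 5 or fewer, the 5 genes nearest to Pdgfra, and Tbx5. Marker lists are given by their summed CPM. Ryr2, Sln, Postn, Col1a1 and Col3a1 were given values after these were seen. Lists covered further resident and activated fibroblast genes, small leucine-rich proteoglycans, PDGF and DDR genes, relatives of members, and markers of cardiomyocyte, endothelial, smooth muscle, leukocyte, epicardial, adipocyte, Schwann and erythroid cells and proliferation. The mice are numbered by label, and litter or batch is not given, so p-values measure the spread between these libraries. Within each group no pair of libraries agreed within sampling noise. Alternatives were DESeq2 1.42.0, other scaling, filters, priors and fold thresholds, counts without Rn45s, removal of the length trend, each labelled sex, a replicate block and each library left out.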

Additional observations from a re-analysis of the deposited data

Results flagged for a closer look

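In 2 of 20 groups of values (10 genes in 2 groups), 1 library stood far from the rest by Dixon's criterion, where chance gives about 1. Both were mutant M2. Tcf21 stood at 51.1 CPM there, with the next mutant at 35.1 CPM, and Cthrc1 at 11.6 CPM, with the next at 5.49 CPM. In the same library the adipocyte markers summed to 387 CPM, against 265 CPM in the next mutant, and Adipoq stood at 9.03 CPM. Fabp4 made most of the adipocyte sums, with a mean of 252 ± 60.4 CPM in the mutants. The leukocyte markers summed to 970 CPM in mutant M2, against 846 CPM in the next mutant. The part of adipocytes and leukocytes in the Tcf21 and Cthrc1 values was not tested. Without mutant M2 the log2 difference of Cthrc1 was 1.27 (adjusted p = 0.0196, edgeR).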

How the results depend on the processing

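Meox1 and Vim had an adjusted p under 0.05 in all 24 alternative fits, with log2 differences of 0.89 to 1.35 and 0.84 to 1.0. Restricting the fit to genes averaging 50 counts or more gave 1284 called genes (653 higher), and Fap and Cthrc1 were not tested. With a fold over 2, 906 were called (367 lower, 539 higher), with 2 members (Meox1 and Cthrc1) and 0 of them lower, and with no fold threshold 4096 (1967 lower, 2129 higher), with 2 members lower. Leaving out 1 library gave 1807 to 2205 genes and 2 to 5 members higher. Without mutants M2 and M3, added after the data were seen, 1640 genes were called and the same 4 members.

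The sign of the log2 difference turned for Ddr2, Dcn and Fap, of which Dcn and Fap stood at -0.01 and 0.00 with all libraries. Ddr2, at -0.33 with all libraries, was at 0.032 in mice labelled female and 0.017 with the replicate block and length trend removed together. Dcn was at 0.076 with the length trend removed, where its longest transcript, coding or not, set the length. It was at 0.02 with upper-quartile factors, and between -0.054 and 0.043 with 1 library left out. As ratios to Pdgfra, a different quantity, Ddr2 was at 0.093 and Dcn at 0.39. Fap was at -0.051 with the length trend removed, -0.13 in mice labelled male, and between -0.16 and 0.14 with 1 library left out. The causes were not tested beyond the construction of each alternative. The adjusted p of Tcf21 was under 0.05 in 7 of 24 alternative fits and that of Lum in 9, with DESeq2 adjusted p of 0.0457 and 0.0347. Without control F2 the adjusted p of Ddr2 was 0.0417 (-0.42, under 1.5-fold).

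Same-numbered mice are different animals, and their deviations did not go together (mean r = -0.00712 over 4 pairs, 0.00129 over 20 others). A replicate block in the model gave 1957 called genes and 5 called members, Tcf21 among them (0.59, adjusted p = 0.0084). Mutants F3 and M3 have no same-numbered control, so the group difference in that fit rests on M1, M2, F1 and F2 of each group. Each of those blocks joins a control and a mutant of the other Xist state. Cthrc1 and Fap rest on few reads, 6 to 80 and 7 to 17 per library, and Cthrc1 also varied widely between mutant mice (coefficient of variation 78.7%).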
